A study of Mus musculus with 29 samples.

Results

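The genes described here encode the replication-dependent histones, the core histones H2A, H2B, H3 and H4 and the linker histone H1 that package newly made DNA. Members were taken by symbol (H1f1 to H1f5, and every symbol made of H2ac, H2bc, H3c or H4c and a number). The rule sets no limit on their measured values, but earlier results of these data were known when it was chosen. The reference gene table holds 63 such genes, and 26 of them had a probe set of their own on the arrays, out of 19938 genes measured in this way. They are 4 of 5 H1 genes, 4 of 18 H2A genes, 9 of 16 H2B genes, 3 of 12 H3 genes and 6 of 12 H4 genes. The other 37 had no probe set that listed them alone, and 26 further probe sets list several histone genes together. Since related copies are so alike, signal of 1 copy may reach the probe set of another, and the value of a single gene is uncertain to that extent. Of the 26 genes, 23 had a mean above the median of probe sets with no listed gene (6.67 on the log2 scale), and H2ac8, H2bc21 and H3c7 lay below it.

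Replication-dependent histone genes lie in clusters, have no introns and are transcribed mainly while DNA is being copied. Their mRNAs usually end in a short stem-loop instead of a poly(A) tail, and the stem-loop binding protein Slbp carries them through processing, export, translation and decay. When a myoblast leaves the cell cycle to become a myotube, DNA synthesis stops and the supply of these mRNAs falls. A few members, among them H1f2 and H2bc4, are also known as polyadenylated transcripts in cells that no longer divide.

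The cells were C2C12, a mouse myoblast line, at passage 27. Proliferating cells had received 50 nM of a synthetic mimic of miR-1, miR-365, miR-34a, miR-29a, miR-22, Let-7b or miR-145, or of the AllStar negative control oligonucleotide, and total RNA was collected after 36 h. Each microRNA had 3 arrays from 3 independent experiments, and the control had 6 arrays, 3 experiments with a technical repeat of each, which were averaged to 3 values. Untransfected myoblasts at 70% confluence and myotubes had 1 array each, with no replicate. Transfection reagent and oligonucleotide were common to all 8 transfected groups, so comparisons with the untransfected arrays differ in that as well. A mimic raises a microRNA above what these cells make, in 1 cell line only.

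Values are log2 signals after normalisation across arrays. Medians of the 29 arrays ranged from 7.24 to 7.39, and precision is limited by how few arrays each group has. A signal of 1 probe set is not compared with that of another as an amount of mRNA. All 7 measured myoblast markers and all 11 measured myotube markers lay above the median of unlisted probe sets in every group. In the control, 2 of 4 leukocyte, 1 of 3 adipocyte and 1 of 3 epithelial markers also lay above it. For endothelial and osteoblast markers it was 0 of 3 and 0 of 2. The array means of the leukocyte, endothelial, adipocyte, osteoblast and epithelial marker lists ranged from 5.63 to 7.59. The highest belonged to the epithelial list, in which Krt8, a keratin, rose under miR-1 by 1.70 and is named here because its value stood out. The untransfected myoblast array stood apart from the transfected cells. Its mean over the myotube markers was 11.82, against 9.90 to 10.15 on the control arrays and 12.75 on the myotube array. Values set against that array are therefore given as descriptions only. In RNA from whole cultures, fewer cells copying DNA and less histone mRNA in each of them cannot be told apart.

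The promoters of these genes carry short elements by class, and the windows nearest to the start site are shown for the members on which the results turn. RefSeq promoter windows (GRCm38.p6, 250 bases before to 50 after the start) were found for 22 of the 26 members. The 4 H1 windows each held CCAAT on the gene's strand near the start. Below are the last 75 bases before the start, 5′ to 3′ on the gene's strand, with CCAAT (or its complement ATTGG) and TATAAA in capitals. H1f1 is at chr13:23763593-23763667 (plus strand), H1f5 at chr13:21780626-21780700 (minus strand), H1f3 at chr13:23554957-23555031 (plus strand) and H1f2 at chr13:23738732-23738806 (plus strand).
H1f1: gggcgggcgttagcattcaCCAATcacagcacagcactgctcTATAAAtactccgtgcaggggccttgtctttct
H1f5: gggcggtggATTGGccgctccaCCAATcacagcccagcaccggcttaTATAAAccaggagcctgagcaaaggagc
H1f3: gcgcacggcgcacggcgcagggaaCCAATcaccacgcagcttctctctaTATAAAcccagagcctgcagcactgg
H1f2: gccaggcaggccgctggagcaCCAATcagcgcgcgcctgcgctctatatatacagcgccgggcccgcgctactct

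The octamer ATTTGCAT, the element known from H2B promoters and bound by the factor Oct1, was found on either strand in 5 of 7 H2B windows and 3 of 4 H2A windows, and in 1.74% of all 32851 windows. These 8 hits are 6 distinct sites, because the divergent neighbours H2ac1 and H2bc1, and H2ac8 and H2bc8, share most of their window. The H2B members H2bc3, H2bc14 and H2bc18 are printed with the last 100 bases before the start and the octamer, CCAAT and TATAAA in capitals. H2bc3 lies at chr13:23746634-23746733, H2bc14 at chr13:21721944-21722043 and H2bc18 at chr3:96269600-96269699, all on the plus strand.
H2bc3: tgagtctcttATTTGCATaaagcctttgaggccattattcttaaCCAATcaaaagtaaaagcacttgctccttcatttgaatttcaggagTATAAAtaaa
H2bc14: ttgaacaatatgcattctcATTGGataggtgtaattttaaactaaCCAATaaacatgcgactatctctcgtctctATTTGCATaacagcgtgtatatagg
H2bc18: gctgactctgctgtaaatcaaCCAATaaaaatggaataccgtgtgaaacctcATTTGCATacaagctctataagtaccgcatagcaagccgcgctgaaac

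GGTCCG, the core of the H4 element bound by the factor Hinfp, was found in all 5 H4 windows and in that of H2bc9, and in 8.25% of all windows. In 4 of the 5 H4 windows it began at position -46 or -47 relative to the start. CCAAT was present in 19 of 22 windows (37.4% of all) and TATAAA in 15 (13.6%), each on either strand. TTTGGCGC and TTTCCCGC, forms of the E2F site, were in none of the 22 windows, and in 0.514% and 1.07% of all. The H4 windows of 75 bases are at chr13:23698459-23698533 (H4c3, minus strand), chr13:23581493-23581567 (H4c4, plus strand), chr13:23551669-23551743 (H4c6, minus strand) and chr13:22041363-22041437 (H4c9, minus strand), with the same 3 elements in capitals.
H4c3: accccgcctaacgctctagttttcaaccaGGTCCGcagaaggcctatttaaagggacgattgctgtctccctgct
H4c4: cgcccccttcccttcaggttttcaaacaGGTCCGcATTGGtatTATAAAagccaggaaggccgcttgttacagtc
H4c6: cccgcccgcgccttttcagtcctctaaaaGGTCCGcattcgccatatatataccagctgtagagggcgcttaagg
H4c9: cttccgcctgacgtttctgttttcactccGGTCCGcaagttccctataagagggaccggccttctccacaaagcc
These letters describe the sequence only.

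Histone mRNA was lower than in the control in most pairs of a member and a microRNA, and miR-1 and miR-365 had the most members called. Of the 182 pairs, 169 had a difference below 0, 100 passed as lower and 6 passed as higher (limma with no block by replicate number, adjusted p under 0.05). Under miR-1, 23 of 26 members fell and 2 rose, where 10.5% of all genes passed as lower and 13.2% as higher. Under miR-365, 25 fell and 0 rose, against 8.33% and 11.7% of all genes. With samples blocked by replicate number, all 26 fell under miR-365. The members' median difference was -0.80 under miR-1 and -0.70 under miR-365 on the log2 scale, while the median of all genes was between -0.01 and 0.04 for each microRNA.

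The other mimics gave smaller differences. Under miR-34a, 19 members fell and 1 rose (6.06% and 5.62% of all genes), with a median of -0.43. Under miR-29a, 16 fell and 0 rose (4.78% and 5.54%), also with a median of -0.43. Under miR-22, 13 fell and 1 rose (5.67% and 8.82%), with a median of -0.36. Let-7b gave 3 lower and 2 higher (5.46% of all genes in each direction) and a median of -0.27, and miR-145 gave 1 lower and 0 higher (3% and 3.85%) and a median of -0.19. With samples blocked by replicate number, 22 members were lower under miR-34a, 20 under miR-29a, 17 under miR-22, 10 under Let-7b and 4 under miR-145. Shares of all genes were not counted with the block. At an unadjusted p under 0.05, 9 members were lower and 1 higher under miR-145, and 15 lower and 2 higher under Let-7b. Under miR-29a and miR-365, where 0 rose by limma, 0 also rose at an unadjusted p under 0.05. Shares of all genes at an unadjusted p were not counted, here and below, and the percentages given are for the adjusted p.

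The unblocked counts for these last 5 microRNAs rest on few arrays. Without control replicate 2 the count of lower members was 7 for miR-22, 7 for miR-29a, 10 for miR-34a, 1 for Let-7b and 0 for miR-145. Without control replicate 3 it was 8 for miR-29a, 10 for miR-34a, 1 for Let-7b and 0 for miR-145. Leaving out miR-22 replicate 1 or 3 gave 8 or 5, miR-29a replicate 1 or 2 gave 9 or 8, and miR-34a replicate 1 or 3 gave 10 or 11. Without Let-7b replicate 1 the count was 0, and without miR-145 replicate 1, 2 or 3 it was 0, 2 or 0. The count of 2 higher members under Let-7b became 1 without control replicate 2 or 3 and 0 without Let-7b replicate 3, and that of 1 under miR-34a became 0 without control replicate 1 or 3 or miR-34a replicate 1 or 3. For miR-1 the count of lower members was 23 in each of these refits, and for miR-365 it was 24 to 26.

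**Figure D1:**
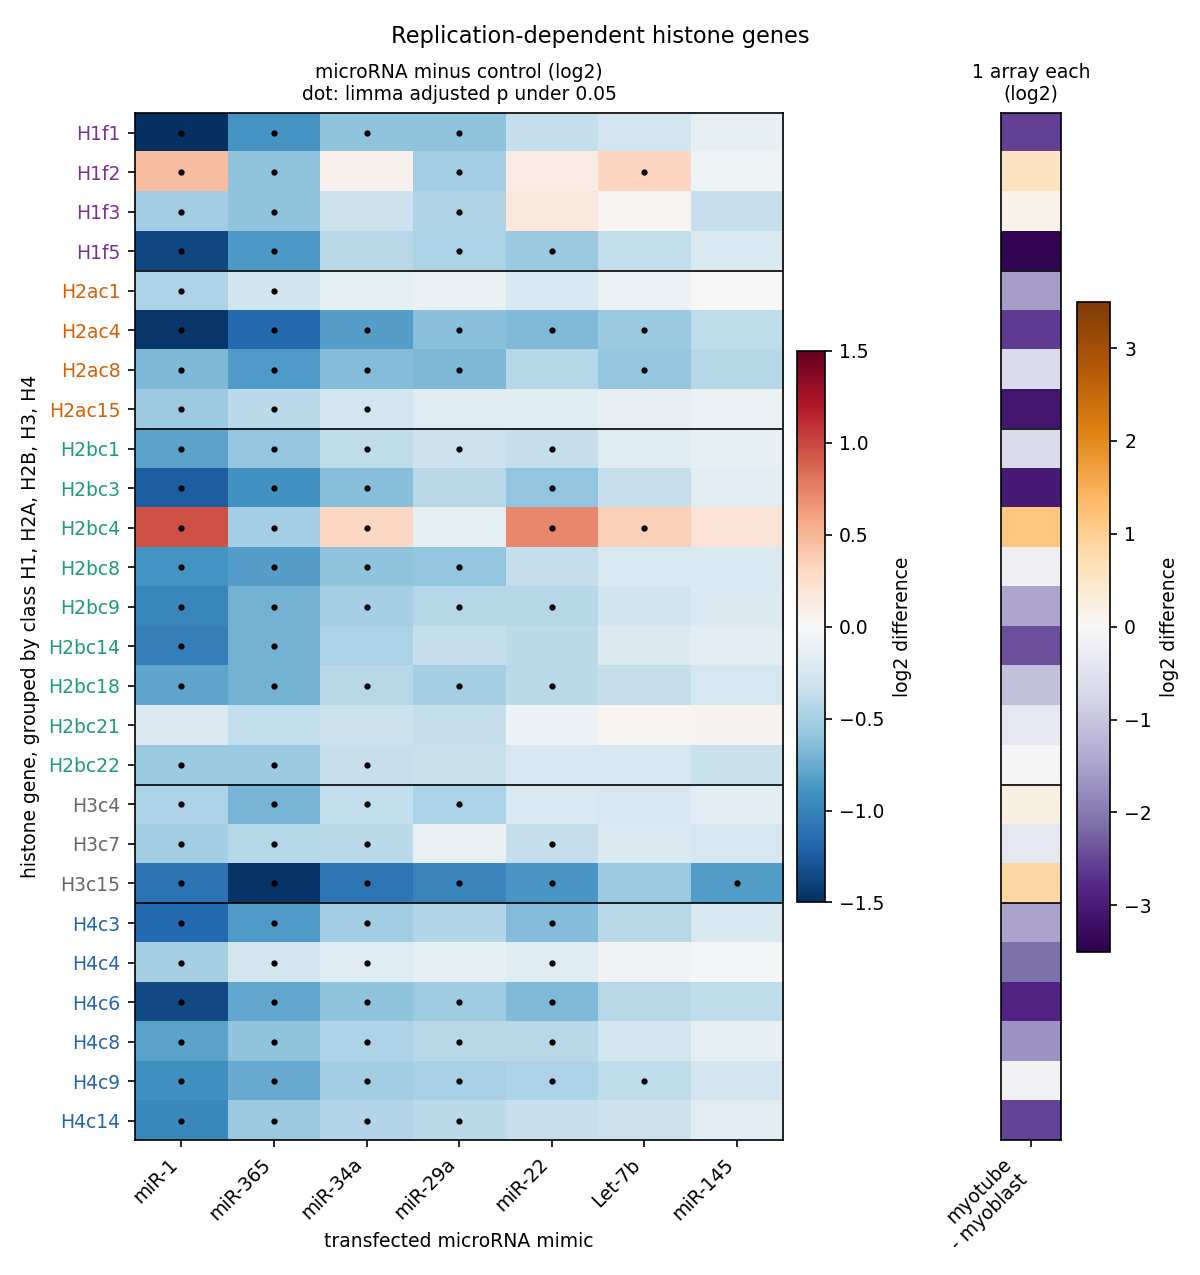
Log2 difference of each microRNA from the control for the 26 histone genes, in rows by class, with a dot where limma's adjusted p was under 0.05, and beside it the difference of the single myotube array from the single myoblast array on its own colour scale. Blue fills the miR-1 and miR-365 columns except for H2bc4 and H1f2, which are red under miR-1.

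By sample, the median member lay 0.70, 0.70 and 1.00 log2 units below the control mean in the miR-1 samples and 0.76, 0.45 and 0.87 below it in the miR-365 samples. The control values themselves were at -0.07, 0.06 and 0.01. The medians of the 3 samples were -0.50, -0.40 and -0.45 for miR-34a, -0.43, -0.45 and -0.40 for miR-29a, and -0.36, -0.27 and -0.45 for miR-22. They were -0.36, -0.21 and -0.23 for Let-7b and -0.21, -0.09 and -0.25 for miR-145. All 21 samples with a mimic lay below the 3 control samples, and since every comparison uses the same 3 controls, these directions are not independent of each other.

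limma's F test over the 7 comparisons passed for 26 of 26 members, against 49.4% of all genes. Of the members, 22 were below 0 under all 7 microRNAs, and 9 passed as lower under 5 or more without the replicate block. The differences share the same control values. Shares of all genes were not counted for these numbers, nor for the pairs below 0 given above. H2bc21 was the 1 member that passed under no microRNA alone in the fit without a block. Its difference nearest to the threshold was -0.37 ± 0.13 (SE) under miR-365, with a limma adjusted p of 0.0504. With samples blocked by replicate number all 26 members passed as lower under miR-365, H2bc21 among them.

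Each microRNA was also set against the mean of the other 6, a difference that uses no control array. The control arrays still enter limma's estimate of the spread. In that comparison, with no block by replicate number, most members passed as lower under miR-1 and as higher under miR-145. Fewer passed under miR-365 and Let-7b, and these counts rose with the block. Under miR-1, 19 members were lower and 2 higher (13.7% and 15% of all genes), with a median of -0.39. Under miR-365, 11 were lower and 0 higher (11.3% and 15.8%), with a median of -0.26. Under miR-145, 0 were lower and 18 higher (8.59% and 10.3%), with a median of 0.28, and under Let-7b 0 were lower and 6 higher (10.3% and 8.19%), with a median of 0.23. With samples blocked by replicate number, 18 members were lower under miR-365 and 15 higher under Let-7b.

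miR-34a stood close to the mean of the others, with 0 members lower, 0 higher (8.18% and 5.9% of all genes) and a median of 0.01. miR-22 had 0 lower and 2 higher, H1f3 and H2bc4 (6.33% and 9.45%), and miR-29a had 2 lower, H1f2 and H2bc4, and 1 higher, H3c7 (8.26% and 8.8%). At an unadjusted p under 0.05 in limma, 0 members were lower and 1 higher under miR-34a, and 0 were lower under Let-7b, miR-22 and miR-145 and 0 higher under miR-365. Single samples moved several of these counts. The 11 lower members under miR-365 became 19 without miR-1 replicate 3. Leaving out miR-365 replicate 1, 2 or 3 gave 5, 21 or 2. The 18 higher members under miR-145 became 11 without miR-145 replicate 1 and 8 without replicate 2, which also gave 1 lower. The 6 under Let-7b became 1 without Let-7b replicate 2 or 3, and 14 without miR-365 replicate 2. Leaving out miR-1 replicate 2 or 3 gave 11 or 10. The 1 higher under miR-29a became 0 without miR-29a replicate 2 or 3.

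**Figure D2:**
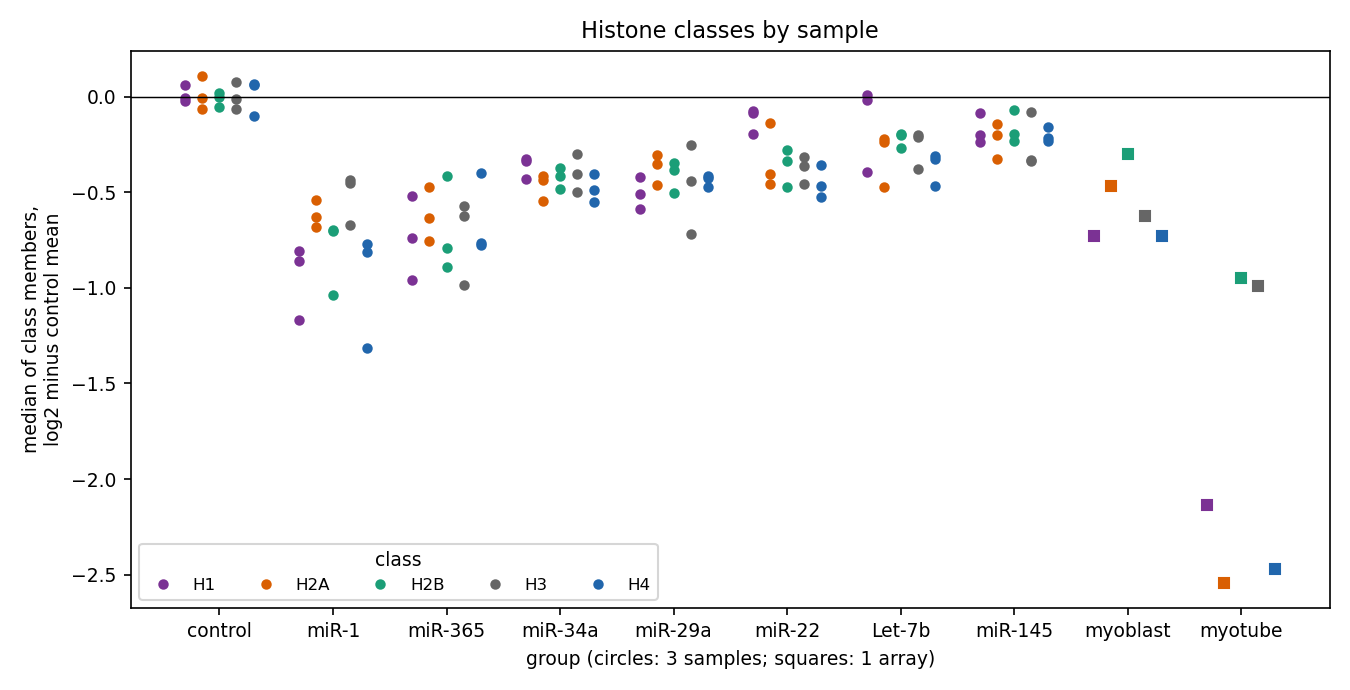
Median over the members of each histone class in every sample, on the log2 scale relative to the mean of the 3 control values; circles are the samples of the 8 transfected groups and squares the single myoblast and myotube arrays. The H4 class lies at -1.31 in the lowest miR-1 sample, and the H2A class at -2.54 on the myotube array.

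The linker histones, which bind the DNA between nucleosomes, divided by gene. H1f1 and H1f5 were among the members that fell most under miR-1, and H1f2 rose. H1f1 measured 10.9997, 11.49 and 11.39 in the control and 9.85, 10.22 and 9.25 under miR-1. These values do not overlap, and the difference of -1.52 ± 0.19 (SE) is a 2.87-fold lower signal (adjusted p = 2.14e-06). H1f5 measured 12.25, 12.45 and 12.43 in the control and 11.21, 11.31 and 10.50 under miR-1, again with no overlap, a difference of -1.37 ± 0.14 (adjusted p = 2.67e-07). Under miR-365 the differences were -0.89 ± 0.19 for H1f1 and -0.86 ± 0.14 for H1f5 (adjusted p = 0.00142 and 1.23e-04).

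H1f2 showed another pattern. Its control values were 11.66, 11.57 and 11.52, and its miR-1 values were 12.01, 12.04 and 12.08, all above the control. The rise was 0.46 ± 0.08 (adjusted p = 2.21e-04). Under miR-365 it measured 11.15, 11.04 and 10.73 and under miR-29a 10.96, 11.18 and 11.09, below all control values in each case. The differences were -0.61 ± 0.08 (adjusted p = 1.44e-05) and -0.51 ± 0.08 (adjusted p = 2.54e-04). Against the mean of the other 6 the difference was 0.58 ± 0.06 under miR-1 (adjusted p = 3.6e-07) and -0.67 ± 0.06 under miR-365 (adjusted p = 4.72e-08). A rise of 0.32 ± 0.08 under Let-7b passed (adjusted p = 0.0138), but not without control replicate 2, control replicate 3 or Let-7b replicate 3 (adjusted p 0.0516, 0.0728 and 0.106).

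H1f3 fell, with differences of -0.52 ± 0.13 under miR-1 and -0.61 ± 0.13 under miR-365 (adjusted p = 0.00325 and 0.00117). Its value under miR-22 was 0.16 ± 0.13 above the control, which did not pass (adjusted p = 0.523). Under miR-29a all 4 H1 genes passed as lower, and the call of H1f2 was kept in every refit. Those of H1f1 and H1f5 ended without control replicate 2 or 3 or any of the 3 miR-29a replicates (adjusted p 0.072 to 0.196 for H1f1 and 0.0668 to 0.13 for H1f5), and that of H1f3 without control replicate 1 or 2 or miR-29a replicate 1 (adjusted p 0.0935, 0.088 and 0.128). H1f1 under miR-34a passed at -0.61 ± 0.19 (adjusted p = 0.0385), but not without control replicate 2 or 3 or miR-34a replicate 1 or 3 (adjusted p 0.103 to 0.2). H1f5 under miR-22 passed at -0.56 ± 0.14 (adjusted p = 0.0098), but not without miR-22 replicate 3 (adjusted p = 0.0714). H1f5 under miR-34a did not pass (-0.41 ± 0.14, adjusted p = 0.0705), and passed when samples were blocked by replicate number (adjusted p = 0.0138). The same held for H1f5 under Let-7b (-0.37 ± 0.14, adjusted p = 0.12, and 0.0288 with the block). It held also for H1f3 under miR-145 (-0.35 ± 0.13, adjusted p = 0.109, and 0.0483 with the block).

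**Figure D3:**
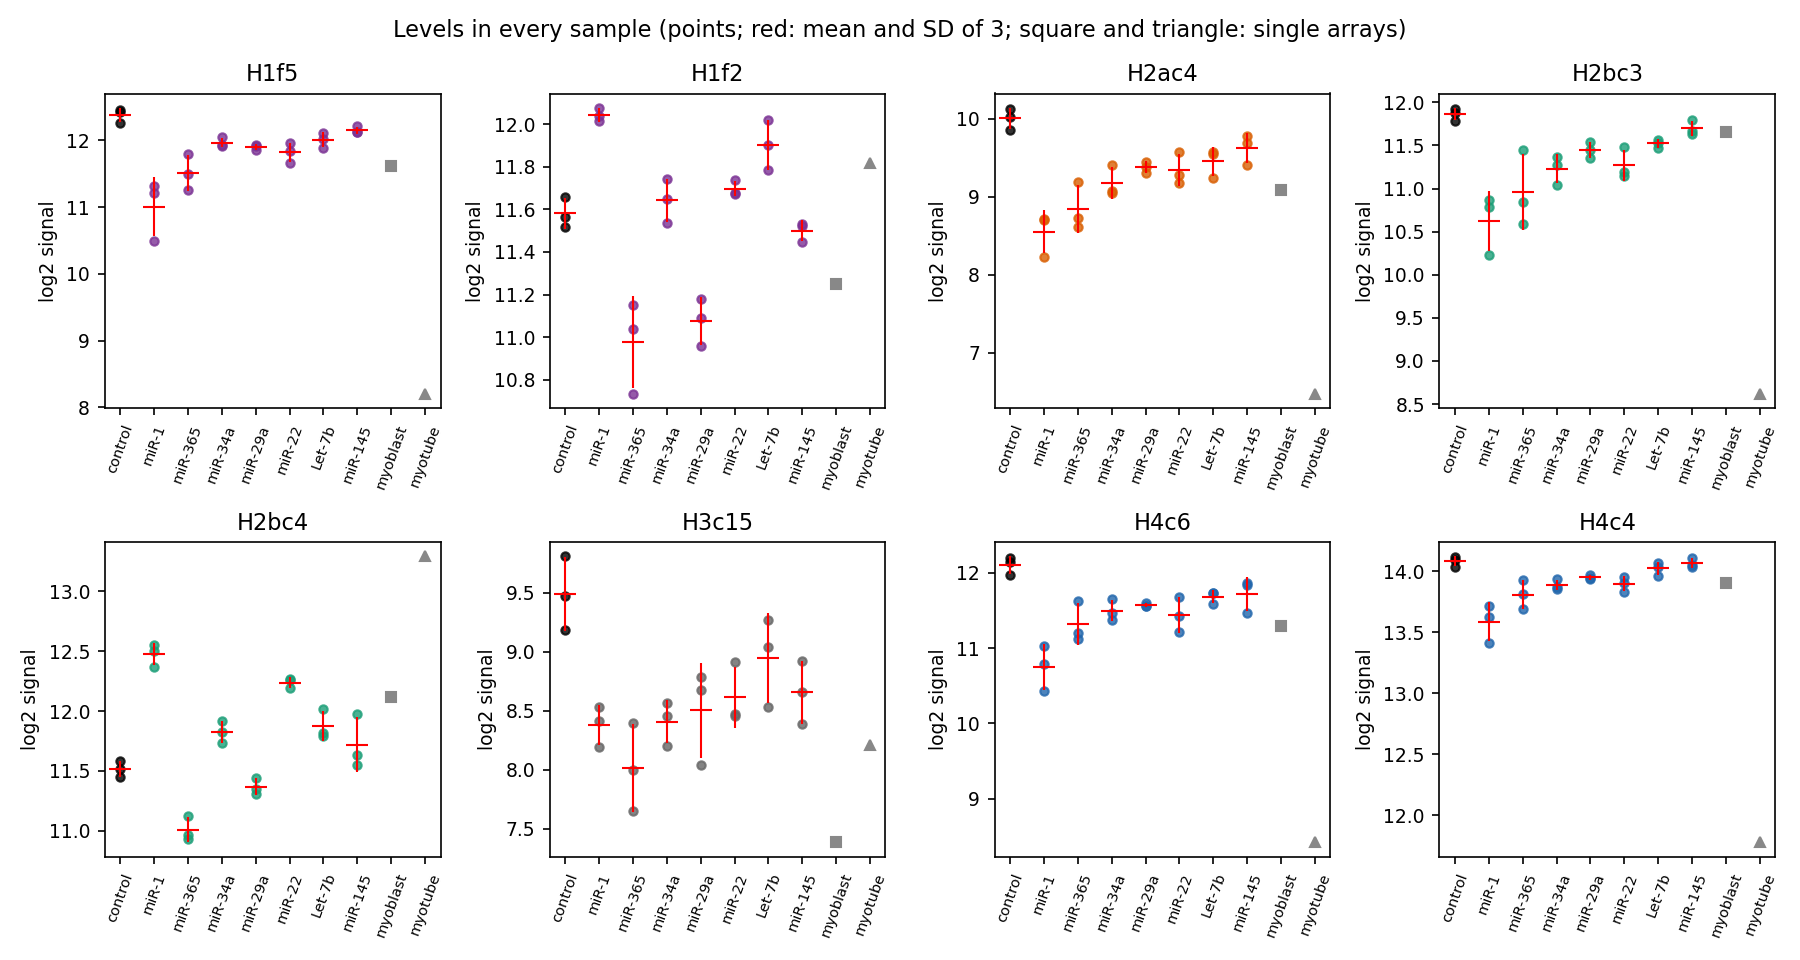
Log2 signal of 8 histone genes in every sample: points are the 3 samples of a group, red marks their mean and SD, and the square and triangle the single myoblast and myotube arrays; the vertical axes differ between panels and do not start at 0. H2bc4 and H1f2 lie above the control under miR-1 and below it under miR-365, while the other 6 genes lie below the control under both.

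H2A forms a dimer with H2B in the nucleosome core. All 4 measured H2A genes fell under miR-1 and under miR-365, with medians of -0.61 and -0.62. H2ac4 measured 9.86, 10.13 and 10.02 in the control, 8.70, 8.72 and 8.23 under miR-1 and 8.73, 9.19 and 8.61 under miR-365. Its values under both mimics lay below every control value. The differences were -1.45 ± 0.15 or 2.74-fold under miR-1 (adjusted p = 2.89e-07) and -1.16 ± 0.15 or 2.24-fold under miR-365 (adjusted p = 7.96e-06).

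H2ac4 also fell, with differences of -0.82 ± 0.15 under miR-34a (adjusted p = 7.84e-04) and -0.66 ± 0.15 under miR-22 (adjusted p = 0.00451), calls kept in every refit. Differences of -0.63 ± 0.15 under miR-29a (adjusted p = 0.00909) and -0.55 ± 0.15 under Let-7b (adjusted p = 0.0204) passed as well. The former did not pass without control replicate 2 (adjusted p = 0.0538), nor the latter without control replicate 2 or 3 or Let-7b replicate 1 (adjusted p 0.1, 0.0671 and 0.117). Without the replicate block, only H3c15, H2ac4 and H4c9 among the 26 passed as lower under 6 microRNAs.

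H2ac8, a member with low signal, measured 6.70, 6.75 and 6.54 in the control and 5.89, 5.89 and 5.66 under miR-365, with no overlap. The difference was -0.85 ± 0.16 (adjusted p = 4.58e-04). It was -0.67 ± 0.16 under miR-1 and -0.65 ± 0.16 under miR-34a (adjusted p = 0.00316 and 0.00918). Calls under miR-29a (-0.68 ± 0.16) and Let-7b (-0.59 ± 0.16) ended without miR-29a replicate 2 (adjusted p = 0.0629), and without control replicate 1 or 2 or Let-7b replicate 1 (adjusted p 0.0588, 0.0811 and 0.161).

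H2ac15, near the top of the scale, measured 13.43, 13.45 and 13.42 in the control and 12.94, 13.08 and 12.63 under miR-1, which do not overlap. It fell under both, with differences of -0.55 ± 0.08 (adjusted p = 2.44e-05) for miR-1 and -0.39 ± 0.08 for miR-365 (adjusted p = 0.00143). Its call under miR-34a (-0.27 ± 0.08, adjusted p = 0.0323) ended on leaving out any of the 6 control and miR-34a replicates (adjusted p 0.0705 to 0.0984). H2ac1, known mainly from the testis, fell by 0.47 ± 0.09 under miR-1 (adjusted p = 5.5e-04). Its difference of -0.29 ± 0.09 under miR-365 passed (adjusted p = 0.0269), but not without control replicate 2 or 3 or miR-365 replicate 1 or 3 (adjusted p 0.0689 to 0.157). Under miR-22 it did not pass (-0.24 ± 0.09, adjusted p = 0.0953), and passed with the replicate block (adjusted p = 0.0358).

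Of the 9 H2B genes, 7 fell and 1 rose under miR-1 (median -0.81), and 8 fell under miR-365 (median -0.70). H2bc3 measured 11.79, 11.93 and 11.88 in the control, 10.78, 10.87 and 10.22 under miR-1 and 10.84, 11.45 and 10.59 under miR-365. No value of either mimic reached the control, and the differences were -1.24 ± 0.16 (adjusted p = 3.5e-06) and -0.90 ± 0.16 (adjusted p = 2.41e-04). H2bc9 and H2bc1, the latter known mainly from the testis, fell, with differences of -0.98 ± 0.11 and -0.81 ± 0.09 under miR-1 (adjusted p = 1.02e-06 and 9.52e-07) and -0.70 ± 0.11 and -0.58 ± 0.09 under miR-365 (adjusted p 9.13e-05 and 9.05e-05).

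Under miR-34a, H2bc9 fell by 0.50 ± 0.11 (adjusted p = 0.0047). H2bc3 and H2bc1 passed at -0.63 ± 0.16 and -0.38 ± 0.09 (adjusted p 0.0101 and 0.00849), but not without miR-34a replicate 1 (adjusted p 0.0604 and 0.0523). The calls of these 3 genes under miR-22 (-0.59 ± 0.16 for H2bc3, -0.42 ± 0.11 for H2bc9 and -0.36 ± 0.09 for H2bc1) each ended without miR-22 replicate 3 (adjusted p 0.0668, 0.0817 and 0.0905). Those of H2bc3 and H2bc9 ended also without control replicate 2 (adjusted p 0.0545 and 0.0656), and that of H2bc3 without miR-22 replicate 1 (adjusted p = 0.0616). Under miR-29a, H2bc9 (-0.43 ± 0.11, adjusted p = 0.0156) was lost without control replicate 2 or 3 or miR-29a replicate 2 (adjusted p 0.0772, 0.0566 and 0.0807), and H2bc1 (-0.32 ± 0.09, adjusted p = 0.029) without any of the 6 replicates (adjusted p 0.0566 to 0.105). H2bc3 did not pass under miR-29a (-0.41 ± 0.16, adjusted p = 0.117), and passed with the replicate block (adjusted p = 0.0473). The H2bc9 difference of -0.29 under Let-7b likewise passed with the block (limma adjusted p = 0.0486) and not without it. The other 5 H2B genes, H2bc8, H2bc14, H2bc18, H2bc21 and H2bc22, had differences from -1.03 to -0.22 under miR-1 and from -0.82 to -0.37 under miR-365. All but H2bc21 passed under both, and H2bc21 passed under miR-365 when samples were blocked by replicate number.

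H2bc4 moved against the rest of its class under miR-1 and miR-22. Its control values were 11.45, 11.59 and 11.51. Under miR-1 it measured 12.50, 12.37 and 12.55 and under miR-22 12.27, 12.19 and 12.26, all above the control. The rises were 0.96 ± 0.09 or 1.94-fold (adjusted p = 5.21e-08) and 0.72 ± 0.09 or 1.65-fold (adjusted p = 5.57e-06). Under miR-365 it measured 11.13, 10.93 and 10.97, below every control value, a difference of -0.51 ± 0.09 (adjusted p = 1.92e-04).

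Set against the mean of the other 6, H2bc4 was higher by 0.80 ± 0.07 under miR-1 and by 0.53 ± 0.07 under miR-22 (adjusted p = 8.17e-09 and 6.3e-06). It was lower under miR-365 and miR-29a, with differences of -0.91 ± 0.07 and -0.49 ± 0.07 (adjusted p 8.63e-10 and 1.52e-05). Against the control the miR-29a difference was -0.15 ± 0.09 and did not pass (adjusted p = 0.401). A rise of 0.36 ± 0.09 under Let-7b passed (adjusted p = 0.00838), but not without Let-7b replicate 3 (adjusted p = 0.0783). The rise of 0.31 ± 0.09 under miR-34a passed (adjusted p = 0.0233), and not without control replicate 1 or 3 or miR-34a replicate 1 or 3 (adjusted p 0.0604 to 0.131). It did not pass with the technical repeats left out (adjusted p = 0.0535) or with each array centred on the median of all genes (adjusted p = 0.0644). The remaining difference, 0.20 ± 0.09 under miR-145, did not pass (adjusted p = 0.209).

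The 3 measured H3 genes all fell under miR-1, miR-34a and miR-365. H3c15 measured 9.18, 9.47 and 9.81 in the control, with an SD of 0.31 that was the widest among the 26 members. It measured 7.995, 8.40 and 7.65 under miR-365, 8.19, 8.42 and 8.53 under miR-1 and 8.21, 8.45 and 8.57 under miR-34a. All 9 values lay below the lowest control value. The differences were -1.47 ± 0.22 or 2.78-fold (adjusted p = 3.19e-05), -1.11 ± 0.22 (adjusted p = 4.89e-04) and -1.08 ± 0.22 (adjusted p = 0.00169).

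H3c15 also fell under miR-29a (-0.98 ± 0.22, adjusted p = 0.00411). Its calls under miR-22 (-0.88 ± 0.22, adjusted p = 0.00767) and miR-145 (-0.83 ± 0.22, adjusted p = 0.0218) ended without some replicates. For miR-22 these were control replicate 3 and miR-22 replicate 3 (adjusted p 0.0616 and 0.0503), and for miR-145 control replicates 2 and 3 and miR-145 replicates 1 and 3 (adjusted p 0.0626 to 0.137). H3c15 was the 1 member called under miR-145 without the replicate block, and 4 members were called as lower with it. Under Let-7b the H3c15 difference of -0.54 did not pass, and passed with the replicate block (limma adjusted p = 0.0166). H3c4 and H3c7 fell, with differences of -0.70 ± 0.11 and -0.43 ± 0.10 under miR-365 (adjusted p 1.02e-04 and 0.00397) and -0.47 ± 0.11 and -0.52 ± 0.10 under miR-1 (adjusted p 0.0037 and 5.57e-04).

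The smaller H3 calls depended on single samples. H3c4 under miR-29a (-0.47 ± 0.11, adjusted p = 0.00819) ended without miR-29a replicate 1 (adjusted p = 0.0609). Under miR-34a, H3c4 (-0.37 ± 0.11, adjusted p = 0.034) ended without any control replicate, without miR-34a replicate 2 or 3 (adjusted p 0.0613 to 0.139) and with the technical repeats left out (adjusted p = 0.0781). H3c7 ended under miR-34a (-0.40 ± 0.10, adjusted p = 0.0115) without control replicate 1 or 2 or miR-34a replicate 2 (adjusted p 0.0573 to 0.0642), and under miR-22 (-0.36 ± 0.10, adjusted p = 0.02) without control replicate 1 or 2 or miR-22 replicate 1 or 2 (adjusted p 0.0515 to 0.0975).

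H4 pairs with H3 in the nucleosome core, and its 6 measured genes, whose windows hold GGTCCG in the 5 cases that could be read, had differences below 0 under each of the 7 microRNAs. All 6 fell under miR-1, miR-34a and miR-365, with medians of -0.94, -0.49 and -0.68. H4c6 measured 11.97, 12.19 and 12.14 in the control, 11.02, 10.79 and 10.43 under miR-1 and 11.20, 11.63 and 11.12 under miR-365. The groups do not overlap, and the differences were -1.35 ± 0.14 or 2.55-fold (adjusted p = 2.72e-07) and -0.78 ± 0.14 (adjusted p = 3.15e-04).

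H4c6 fell also, with differences of -0.66 ± 0.14 under miR-22 and -0.61 ± 0.14 under miR-34a (adjusted p = 0.00238 and 0.00604). The call under miR-29a (-0.53 ± 0.14, adjusted p = 0.0168) ended without control replicate 2 or 3 or miR-29a replicate 2 or 3 (adjusted p 0.0583 to 0.0799). H4c6 differences of -0.42 under Let-7b and -0.38 under miR-145 did not pass. Both passed with the replicate block (limma adjusted p 0.0118 and 0.0288). H4c9 measured 9.01, 9.09 and 9.22 in the control and 8.36, 8.29 and 7.91 under miR-1, with no overlap (-0.92 ± 0.10, adjusted p = 6.37e-07). It fell, with differences of -0.76 ± 0.10 under miR-365, -0.52 ± 0.10 under miR-34a, -0.48 ± 0.10 under miR-29a and -0.47 ± 0.10 under miR-22 (adjusted p from 1.12e-05 to 0.00305). Its call under Let-7b (-0.39 ± 0.10, adjusted p = 0.0155) ended without control replicate 3 or Let-7b replicate 1 (adjusted p 0.0985 and 0.108).

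H4c4 had the smallest differences of the class and the brightest probe set among the 26. It measured 14.04, 14.12 and 14.09 in the control and 13.63, 13.72 and 13.41 under miR-1, with no overlap, a difference of -0.50 ± 0.06 (adjusted p = 1.59e-06). Under miR-365 it fell by 0.27 ± 0.06 (adjusted p = 0.00191). Its calls under miR-22 (-0.18 ± 0.06, adjusted p = 0.042) and miR-34a (-0.19 ± 0.06, adjusted p = 0.0366) ended with the technical repeats left out (adjusted p 0.0668 and 0.0611) and without control replicate 2 or 3 or replicate 1 or 3 of the microRNA (0.102 to 0.169 and 0.109 to 0.132). The other 3 H4 genes, H4c3, H4c8 and H4c14, had differences from -1.16 to -0.80 under miR-1 and from -0.85 to -0.55 under miR-365, and all of these passed.

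The size of the miR-1 difference varied with the signal of the probe set. The 15 members with a control mean from 9 to 13 had a median of -1.03, the 3 at 13 or more one of -0.55, and the 8 under 9 one of -0.54. The highest value on any array was 14.65. A further 26 probe sets list several histone genes and so belong to no single member, and 24 of them had a control mean above 13. They hold 24 distinct sets of values. Under miR-1 all 26 fell, with a median of -0.45 and a range from -1.41 to -0.40. Under miR-365 all 26 fell with a median of -0.26, and under miR-34a 17 fell with a median of -0.19. By limma miR-22 had 6 lower, miR-29a 2, and Let-7b and miR-145 0, and no shared probe set rose in these 7 comparisons. Of all genes, 10.5% passed as lower under miR-1, 8.33% under miR-365, 6.06% under miR-34a, 5.67% under miR-22, 4.78% under miR-29a, 5.46% under Let-7b and 3% under miR-145. From 3.85% to 13.2% passed as higher. The miR-29a count is near its share. Many shared probe sets list the same genes and are not separate observations. How far probe saturation bears on the smaller differences of bright probe sets was not tested.

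**Figure D4:**
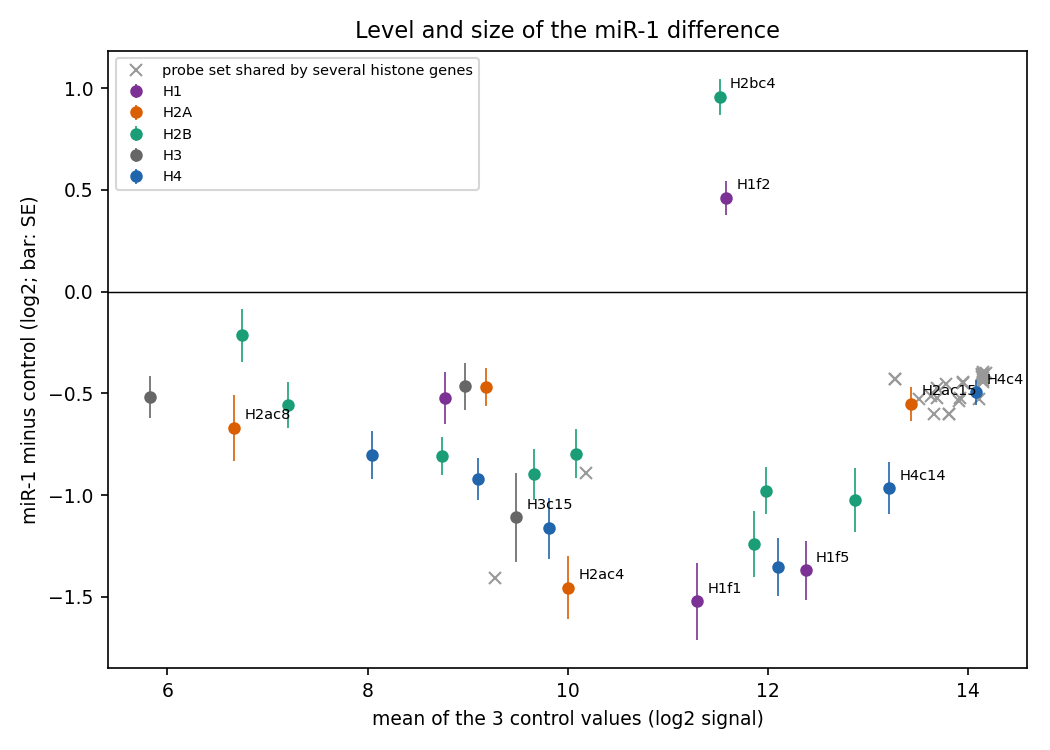
Difference under miR-1 (log2, bars: SE for single genes) against the mean of the 3 control values for the 26 histone genes, coloured by class, and for 26 probe sets shared by several histone genes (grey crosses). The shared probe sets crowd at the bright end with differences near -0.45, and H2bc4 and H1f2 are the 2 points above 0.

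Among the genes that make and process histone mRNA, fewer than 10 of 25 passed as lower, and fewer than 5 as higher, under each microRNA. Of 25 measured genes of this list, 9 fell and 1 rose under miR-1 (10.5% and 13.2% of all genes), and their median was -0.18. Under miR-22, 2 fell and 2 rose (5.67% and 8.82%), under miR-34a 2 fell (6.06%), and under Let-7b 2 fell (5.46%). Under miR-29a 1 fell and 1 rose (4.78% and 5.54%), under miR-145 1 fell (3%), and under miR-365 1 fell and 4 rose (8.33% and 11.7%). Apart from the falls under miR-1, no count exceeded 4 of the 25. Slbp measured 10.19, 10.36 and 10.36 in the control, 9.52, 9.14 and 9.32 under miR-1 and 9.30, 9.59 and 9.13 under miR-22. These values do not overlap with the control, and the differences were -0.97 ± 0.10 (adjusted p = 2.16e-07) and -0.96 ± 0.10 (adjusted p = 7.07e-07). Under miR-365, where 25 histone genes fell, the Slbp difference was -0.25 ± 0.10 and did not pass (adjusted p = 0.0947). Its result with the replicate block was not read.

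Npat, the scaffold through which cyclin E and Cdk2 switch on histone transcription, fell by 0.74 ± 0.08 under miR-1 (adjusted p = 5.24e-07) and rose by 0.29 ± 0.08 under miR-365 (adjusted p = 0.0118). Eri1, an exonuclease that trims the histone mRNA end, fell by 0.65 ± 0.06 under miR-1 (adjusted p = 1.19e-07) and passed under no other microRNA. The part of these genes in the histone differences was not tested.

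Of 25 chaperones and other genes that carry or acetylate new histones, 14 fell and 2 rose under miR-1 (10.5% and 13.2% of all genes), 9 fell and 1 rose under miR-22 (5.67% and 8.82%), and 9 fell and 2 rose under miR-34a (6.06% and 5.62%). Under miR-365, 6 fell and 3 rose (8.33% and 11.7%), under Let-7b 4 fell (5.46%), under miR-29a 4 fell (4.78%), and under miR-145 3 fell and 2 rose (3% and 3.85%). Chaf1a and Chaf1b, subunits of the complex that places H3 and H4 on newly copied DNA, fell, with differences of -1.02 ± 0.09 and -1.37 ± 0.13 under miR-1 (adjusted p = 1.77e-08 and 5.37e-08). They fell, with differences of -0.43 ± 0.09 and -0.67 ± 0.13 under miR-365 (adjusted p 8.01e-04 and 5.02e-04). Mms22l, a partner of Tonsl at replication forks, fell, with differences of -1.30 ± 0.12 under miR-1 (adjusted p = 3.38e-08) and -0.63 ± 0.12 under miR-22 (adjusted p = 5.12e-04).

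Most measured genes of DNA synthesis fell under miR-1, miR-365, miR-34a and miR-22. Of 20 measured S phase genes, 19 fell under miR-1 (median -1.03), 18 under miR-365 (median -0.49), 14 under miR-34a (median -0.42), 11 under miR-22 (median -0.40), 3 under miR-29a (median -0.13), and 1 each under Let-7b and miR-145 (medians -0.15 and -0.10), and 0 rose under any of the 7 in limma, nor did any at an unadjusted p under 0.05. Of all genes, 10.5%, 8.33%, 6.06%, 5.67%, 4.78%, 5.46% and 3% fell, in that order of microRNAs. Under miR-29a, 16 of 26 histone genes had fallen, with a median of -0.43. Mcm3, a subunit of the replicative helicase, fell, with differences of -1.55 ± 0.12 under miR-1 and -0.64 ± 0.12 under miR-365 (adjusted p = 8.55e-09 and 5.26e-04), and its difference under miR-29a was -0.23 ± 0.12 (adjusted p = 0.325). Pcna, the sliding clamp, fell by 0.61 ± 0.05 under miR-1 (adjusted p = 8.47e-09). Ccne1, which encodes cyclin E, fell, with differences of -1.01 ± 0.11 under miR-1 and -1.16 ± 0.11 under miR-22 (adjusted p 6.82e-07 and 2.77e-07). Of the 11 myotube markers, 9 rose under miR-1, 7 under miR-34a, 6 under miR-22, 3 under miR-29a, 2 under miR-145 and 0 under miR-365 (1 there at an unadjusted p under 0.05), where 13.2%, 5.62%, 8.82%, 5.54%, 3.85% and 11.7% of all genes rose. Under Let-7b, 2 of them fell, against 5.46% of all genes. The part of cell cycle and differentiation in the histone differences was not tested.

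Between the single myotube array and the single myoblast array, histone signals were mostly lower in the myotubes. The members' median difference was -1.27, against -0.02 for all genes, and 21 of 26 were below 0, against 53.3% of all genes. A difference of over 2-fold was present for 14 members in the lower direction, against 2.01% of all genes, and for 1 in the higher direction, against 2.71%. H1f5 went from 11.61 on the myoblast array to 8.20 on the myotube array, H2ac15 from 13.29 to 10.21 and H2bc3 from 11.65 to 8.62. These are differences of -3.41, -3.08 and -3.03, or 10.6-fold, 8.47-fold and 8.19-fold lower in myotubes. H4c6 and H2ac4 followed at -2.86 and -2.61.

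In the other direction H2bc4 was at 12.12 in the myoblasts and 13.29 in the myotubes, 1.17 higher, and H1f2 at 11.25 and 11.82, 0.57 higher. H3c15, H3c4 and H1f3 were 0.83, 0.24 and 0.14 higher. By class the medians were -2.09 for H2A, -1.90 for H4, -1.21 for H1, -0.65 for H2B and 0.24 for H3. The H3 median rests on 3 of 12 genes. Probe sets shared by several histone genes had a median of -1.85 and a range from -2.29 to 0.79. Among them, those that list only H3 genes, H3c15 and H3c4 included, ranged from -2.29 to -1.94. With 1 array for each state there is no error for any of these differences. Slbp was at 9.76 and 9.07, a difference of -0.70.

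The transfected control cells had more histone signal than the untransfected myoblasts. For 25 of 26 members all 3 control values lay above the myoblast array, where 33.7% of all genes did so. H2bc4 was the exception, with all 3 control values below the myoblast array by a mean of 0.60, as for 34% of all genes. The median member was 0.58 higher in the control. The myotube markers, whose level on the myoblast array is given above, moved the other way, and the culture conditions of the 2 groups cannot be told apart from transfection.

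Across the 26 members, the miR-1 difference and the myotube difference had a Pearson r of 0.65 and a Spearman rho of 0.60, and of 0.53 and 0.51 without H2bc4 and H1f2. For miR-365 the values were 0.01 and 0.17. The points are genes of the same arrays, not independent samples, and their differences share probe set brightness and sequence, so the values are descriptions. H2bc4 and H1f2 were high in myotubes and under miR-1 and low under miR-365. H3c15 was higher in myotubes than on the myoblast array and lower than the control under miR-1 and miR-365.

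**Figure D5:**
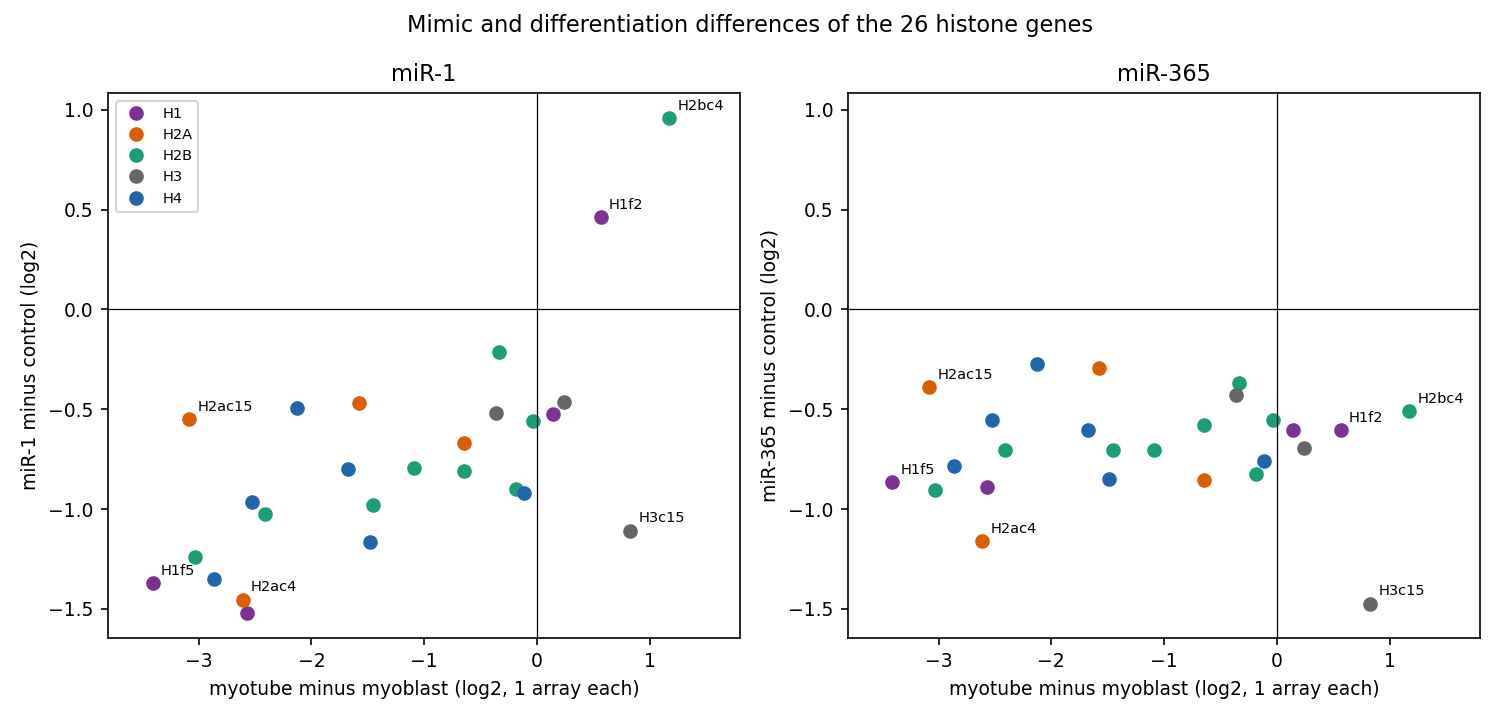
Log2 difference under miR-1 (left) and miR-365 (right) against the difference of the single myotube from the single myoblast array, 1 point per histone gene, coloured by class. In the left panel H2bc4 and H1f2 lie in the upper right and H1f5 and H2ac4 in the lower left; in the right panel all 26 points lie below 0.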

How the data were processed

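Total RNA of 29 C2C12 samples was hybridised to Affymetrix arrays after random-primed labelling. The deposited values are log2 signals that the authors made with RMA in Affymetrix Expression Console 1.1, per the submitters' processing notes. Filters and genome build are not given in the sources used here. RMA equalises array distributions, so a shift shared by all genes would not show. All value columns were mapped to samples. Of 35556 probe sets, 21789 listed 1 gene, 1621 several and 12146 none. The probe set with the highest mean over the 27 transfected arrays stood for a gene, which left 19938 genes.

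Each control array was averaged with its technical repeat. limma 3.58.1 (R 4.3.3) fitted 24 values in 8 groups with a variance trend and no block by replicate number. P values were 2-sided and adjusted by Benjamini-Hochberg within each comparison over all genes, with a threshold of 0.05, and no dim gene was left out. The ± values of differences are limma's standard errors. P values measure the spread between these experiments in 1 cell line.

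Members, lists and tests were chosen with earlier results of these data known. Named members are, by class, the 3 with the smallest F test p; by microRNA, the 3 that passed with the largest differences; any called against the majority; and the 5 largest myotube differences in each direction. Slbp and the 3 genes of each list with the smallest F test p were also named. Replicate numbers come from the labels: residuals of 23 of 24 values correlated best with their own number. For miR-22, miR-29a, miR-34a and miR-365 all 3 correlations with the control exceeded 0.1, so these are called paired here. The main fit has no block by replicate number, so its counts and p values leave the pairing out. Blocked counts of lower members stand beside the main ones for every microRNA but miR-1. Blocked p values are given for named members that passed with the block and not without it. In simulated data for miR-1 against the control, 66% of genes changed by a log2 of 0.5 and 98% of those changed by 1 were recovered among 19938 genes. There 9 unchanged genes were called. The simulated noise was independent between values, unlike these residuals, so the shares do not cover the effect of pairing. Alternatives were the replicate block, technical repeats, groups in the model, centring, quantile normalisation, dim-gene filter, variance trend, probe set choice, thresholds and left-out replicates. Their results were read for the histone members only, in some settings with shared histone probe sets added. They were read for no gene of the other lists. Promoter windows came from RefSeq tables, and motifs were searched on both strands.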

Additional observations from a re-analysis of the deposited data

How the results depend on the processing

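Of 79 calls of named members against the control, 48 passed under every alternative run for them, among them all 18 under miR-1 and 17 of 18 under miR-365, and 0 named differences that passed reversed. Those alternatives were the replicate block, technical repeats left out, centring, the mean of all probe sets of a gene and left-out replicates. No member had over 1 probe set of its own, so that mean left the members' values unchanged. The remaining alternatives were run for counts only. With the replicate block the count of lower members was 10 for Let-7b and 4 for miR-145, and against the other 6 it was 15 higher for Let-7b and 18 lower for miR-365; it was 17, 20, 22 and 26 for the paired miR-22, miR-29a, miR-34a and miR-365. The block ended no call of a named member. With technical repeats left out there were 5 lower for Let-7b, 0 higher for miR-34a and 2 lower for miR-145. With technical pairs as a random block Let-7b had 5 lower, and with only the 2 groups in the model 11. Centring the arrays gave 0 higher for miR-34a and 2 lower for miR-145. Adding the shared probe sets that match the rule gave 40 lower under miR-1, 42 under miR-365 and 43 past the F test. Adding all shared histone probe sets, chosen after seeing the data, gave 49, 51 and 52, and 36 lower under miR-34a; more features are counted there. Requiring 1.5-fold left 1 lower and 0 higher for Let-7b, 1 higher for miR-1, 5 lower each for miR-22 and miR-29a, and 7 lower and 0 higher for miR-34a. An adjusted p under 0.01 left 0 lower and 1 higher for Let-7b, 6 lower for miR-22, 8 for miR-29a, 8 lower and 0 higher for miR-34a, and 0 lower for miR-145. Except where the alternative itself changes what is counted, the cause was not tested.
Leaving out 1 replicate at a time gave 23 to 23 lower members for miR-1, 24 to 26 for miR-365, 10 to 15 for miR-34a, 7 to 14 for miR-29a, 5 to 13 for miR-22, 0 to 4 for Let-7b and 0 to 2 for miR-145, and 0 to 2 higher for Let-7b and 0 to 1 for miR-34a. Against the other 6 it gave 16 to 20 lower for miR-1, 2 to 21 for miR-365 and 0 to 1 for miR-145, and 8 to 19 higher for miR-145, 1 to 14 for Let-7b and 0 to 1 for miR-29a. The F test kept 26 throughout. Arrays limit what can be read from probe sets near background (H2ac8, H2bc21 and H3c7) and from those near the top of the scale.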

Other observations

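A further 15 measured histone genes have symbols that the rule for the 26 does not take. They are mostly variants, such as Macroh2a1 and Cenpa, with H4f16, H2aw and H2bu2 among them. Of these 15, 10 fell under miR-1, 6 under miR-29a, 6 under miR-365, 4 under miR-34a, 3 under miR-22, 1 under miR-145 and 0 under Let-7b, where 10.5%, 4.78%, 8.33%, 6.06%, 5.67%, 3% and 5.46% of all genes fell, and 0 rose in limma's 7 comparisons with the control (at an unadjusted p under 0.05, 2 were lower under Let-7b and 1 higher under miR-365). Macroh2a1, which encodes the H2A variant known from the inactive X chromosome, measured 11.41, 11.37 and 11.45 in the control and 10.44, 10.54 and 10.22 under miR-365. These values do not overlap, and the difference was -1.01 ± 0.10 (limma adjusted p = 1.31e-07). It was -0.48 ± 0.10 under miR-1 (adjusted p = 7.98e-04) and 0.01 ± 0.10 under miR-22 (adjusted p = 0.977).

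H4f16, which encodes an H4 protein, measured 11.40, 11.73 and 11.61 in the control and 10.70, 10.72 and 10.25 under miR-1, with no overlap and a difference of -1.03 ± 0.11 (limma adjusted p = 2.8e-07). Its differences were -0.56 ± 0.11 under miR-365, -0.52 ± 0.11 under miR-22, -0.42 ± 0.11 under miR-34a and -0.39 ± 0.11 under miR-29a (adjusted p from 5.49e-04 to 0.0229), and the myotube array differed from the myoblast array by -1.52. Cenpa, the H3 variant of centromeres, fell by 0.71 ± 0.11 under miR-1 (adjusted p = 3.39e-05), and its differences were -0.51 ± 0.11 under miR-34a and -0.38 ± 0.11 under miR-365 (adjusted p = 0.00275 and 0.0142). Alternative settings, the replicate block and left-out replicates among them, were not read for these genes.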
